A study of Rattus norvegicus with 6 samples.

Results

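The renal cortex of 3 male rats given only corn oil is described here, as measured on 1-colour 60-mer expression arrays. These animals are the vehicle controls of a study of 6 rats, and were chosen by their treatment label alone. They were Sprague-Dawley rats of the outbred Crl:CD(SD) stock, bought at 5 weeks of age, kept on a basal diet and dosed with corn oil for 4 weeks. The other 3 rats received 2-amino-4-nitrophenol at 750 mg per kg per day for 4 weeks; their arrays serve below only as a second set of animals in which spread could be read, and the groups are not contrasted. The design text calls the samples biological replicates, so each array is taken as 1 rat. Of 15284 rat genes that could be named on the array, 11730 (76.7%) were detected in all 3 corn oil rats. Counts of detected list members below are to be read against this share.

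The cortex is the outer layer of the kidney. It holds the glomeruli, where podocytes and a fenestrated endothelium filter plasma, and the convoluted tubules, where filtered glucose, amino acids, phosphate and bicarbonate are reclaimed. The proximal tubule makes up most of the cortical tissue, is packed with mitochondria, makes glucose from lactate and amino acids, and secretes organic anions and drugs. The thick ascending limb, the distal convoluted tubule and the cortical collecting duct follow it and adjust salt, calcium, acid and water. Because a piece of whole cortex was extracted, fewer cells of a type and less RNA per cell cannot be told apart in any value below.

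Levels are on the log2 scale, with the 75th percentile of each array (taken over its 61657 probes that are not controls) subtracted from the scanner's processed signal, so that 0 is that percentile and a step of 1 is a change of 2-fold. The 75th percentile itself was a signal of 852, 743 and 794 on the arrays of replicates 1, 2 and 3. A probe was taken as detected where the scanner software marked it well above background on all 3 arrays, and a gene is shown by its brightest detected probe. Between 41986 and 43724 probes were well above background per array, against at most 2 of 308 negative control spots, and no probe was saturated. Probes differ in how well they bind, so the order of brightness below is not an order of transcript number. Replicates 1 and 3 lay on 1 slide together with the 3 treated arrays, and replicate 2 lay on another slide, so that for replicate 2 the slide and the animal cannot be told apart. The authors' processed value table holds the same arrays, but each of its corn oil columns matched the scanner file of another corn oil replicate: the SD of the difference over detected probes was at most 0.0006 for the matching file and at least 0.3205 for the file of the same number. Replicate numbers here follow the scanner files.

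The brightest signals came from genes of proximal tubule metabolism, metal storage, mitochondria and translation. Fbp1, the gluconeogenic fructose-1,6-bisphosphatase, was brightest at 9.13, 9.18 and 9.09 in replicates 1, 2 and 3. Miox, the kidney enzyme that opens the ring of myo-inositol, followed at 9.09, 9.13 and 9.08. The 3 rats lay within 0.10 of each other for both genes. The ferritin light and heavy chains that store iron, Ftl1 and Fth1, reached 8.98 ± 0.07 (SD, n = 3) and 8.76 ± 0.04, and the metallothionein Mt1, which binds zinc and copper, 8.84 ± 0.05. Mitochondrial genes among the 20 brightest were Atp5f1a (8.75 ± 0.02), a subunit of ATP synthase, Cox6a1 (8.57 ± 0.03), a subunit of cytochrome c oxidase, and Chchd2l3 (8.52 ± 0.02), related to a mitochondrial intermembrane protein. The ribosomal genes Rpl41 and Rplp1 stood at 8.82 and 8.47. Lysosomal proteases were included, cathepsin B (Ctsb, 8.72 ± 0.03) and cathepsin A (Ctsa, 8.51 ± 0.02). Both P450 enzymes in the group, Cyp4a2 (8.64 ± 0.03) and Cyp2c23 (8.33 ± 0.06), act on arachidonic acid. Slc13a3, the basolateral sodium-dicarboxylate carrier that feeds organic anion exchange, was the brightest transporter at 8.57 ± 0.10. Ceacam9 (8.55), the cyclophilin Ppia (8.47), ubiquitin B (Ubb, 8.43) and cytoplasmic gamma actin (Actg1, 8.33) were also among the 20.

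**Figure D1:**
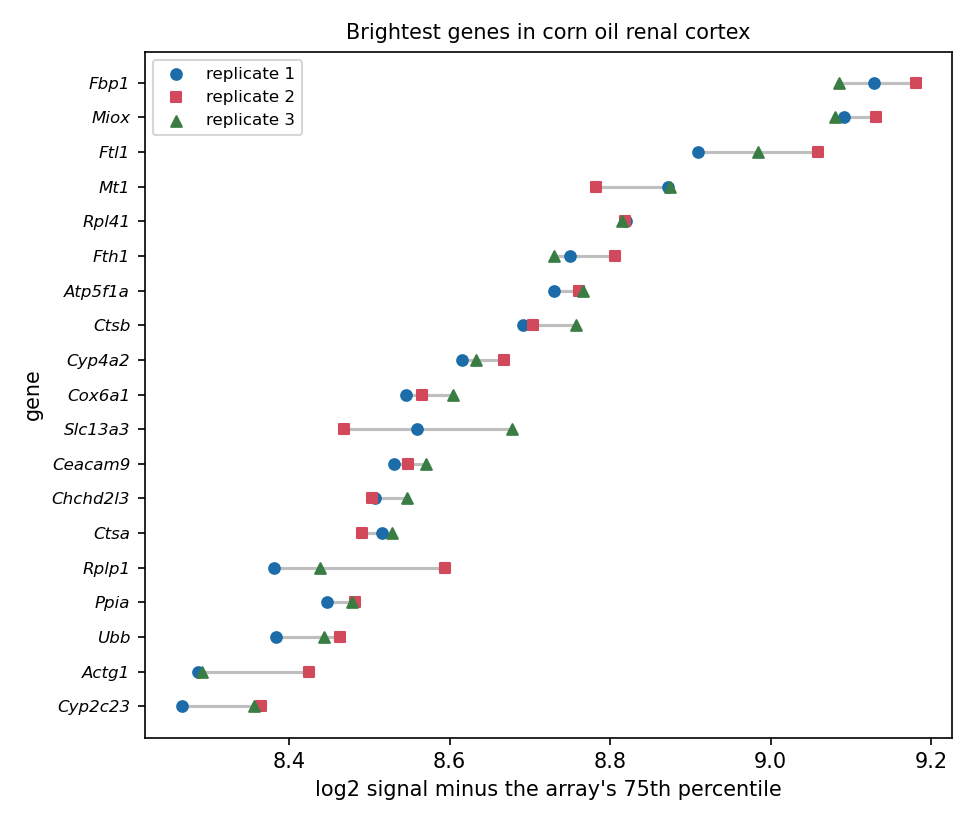
Level in each of the 3 corn oil rats (points) for the brightest genes; the horizontal axis is the log2 signal minus the array's 75th percentile and the grey line spans the 3 rats. Fbp1 and Miox lead at 9.13 and 9.10, and the widest ranges drawn are those of Rplp1 and Slc13a3, both 0.21.

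Among the 100 brightest genes, 17 encoded ribosomal proteins and 12 encoded subunits of the respiratory chain or ATP synthase. Each of the 73 ribosomal protein genes on the array was detected, with a median level of 6.84, and 84 of 85 respiratory genes were detected, with a median of 5.96; Cox8c, a cytochrome oxidase subunit, was the exception. The median level of all detected genes was 0.21. Both families were also among the least variable, with a median SD over the rats of 0.043 and 0.046, against 0.105 for all detected genes. Spread fell with signal, and the brightest 10% of detected genes, with a median level of 5.205, had a median SD of 0.066. A second probe of the same gene could be much dimmer: the next brightest probe of Fbp1 averaged 6.20 and that of Miox 6.74, whereas the other Mt1 probe averaged 8.80.

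Markers of nearly every cortical nephron segment were detected. Of 82 genes in 9 segment lists, 77 had a named probe. Of these, 75 were detected in all 3 rats, against 76.7% of all named genes. Detection alone does not show a segment, since 7 of 8 heart and skeletal muscle genes were also detected, at a median of -4.73. The 2 that were not detected in any rat were Nos1, the nitric oxide synthase of the macula densa, and Pvalb, the calcium buffer of the early distal convoluted tubule. Slc12a1, the sodium-potassium-chloride cotransporter that defines the thick ascending limb, had no probe that could be named here.

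In the glomerulus, all 12 podocyte genes were detected, with a median level of 0.67. Podxl, the sialomucin of the foot process, stood at 4.49, 4.58 and 4.34. Clic5, which anchors the cortical cytoskeleton, stood at 4.11, 3.90 and 4.01. The 3 rats lay close together for both, and no podocyte gene had a range over 0.44.

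The proximal convoluted tubule list was the brightest of the 9. All 17 members were detected and lay at or above the 75th percentile, with a median of 5.79, which is the 96.6th percentile of detected genes. After Slc13a3, the brightest members were Slc22a6, the organic anion transporter OAT1, at 8.22, 8.10 and 8.28, and Slc34a1, the phosphate cotransporter of the brush border, at 8.01, 7.99 and 8.03. Slc5a2, the low-affinity glucose cotransporter SGLT2, stood at 7.53 ± 0.09, with a second probe between 7.24 and 7.51. Lrp2, the endocytic receptor megalin, stood at 6.33 ± 0.11. The dimmest member was the sodium-proton exchanger Slc9a3 at 0.71 ± 0.29. In the proximal straight tubule list, all 7 members were detected over a wide range of levels. Acy3, an aminoacylase, stood at 7.50 ± 0.10, Slc6a18, a glycine transporter, at 3.90 ± 0.07 and the amino acid transporter Slc7a13 at 3.52 ± 0.36. Slc22a7, the anion transporter OAT2, was near the lower end of detection at -3.03, -3.39 and -3.77, the 14.4th percentile.

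Beyond the proximal tubule, all 9 named genes of the thick ascending limb were detected, with a median of 2.19. Umod, which encodes uromodulin, the most abundant protein of normal urine, stood at 8.17, 8.17 and 8.04, and its other probe at 8.18, 8.16 and 8.01. Egf, the epidermal growth factor precursor made in this segment, stood at 5.16 ± 0.16. In the distal convoluted and connecting tubule, Klk1, tissue kallikrein, stood at 7.40 ± 0.06, Slc12a3, the thiazide-sensitive cotransporter, at 4.52, 4.12 and 4.16, and Calb1, the calcium carrier calbindin, at 2.42 ± 0.33. In principal cells of the collecting duct, the water channels Aqp2 and Aqp3 stood at 6.44 ± 0.04 and 5.24 ± 0.12, and Hsd11b2, which keeps corticosterone from the mineralocorticoid receptor, at 5.85 ± 0.09. In intercalated cells, the proton pump subunit Atp6v1g3 stood at 6.26 ± 0.11, the chloride-bicarbonate exchanger Slc26a4 at 5.71 ± 0.20, and Atp6v1b1, another pump subunit, at 3.93 ± 0.11. Of the intercalated cell genes 7 of 10 were highest in replicate 2, as were 6 of 9 principal cell genes. So were 5 of 6 distal convoluted and connecting tubule genes and 5 of 7 proximal straight tubule genes, against 34.5% of all detected genes. The median deviations of these lists from their own 3-rat means were 0.13, 0.09, 0.09 and 0.11 there. Proximal convoluted tubule genes leaned the other way, with 11 of 17 lowest in replicate 2, against 40.0% of all detected genes. Their median deviation there was -0.065. The exchanger Slc4a1, which intercalated and red cells share, stood at 2.91, 3.39 and 2.98.

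The thin limb and inner medulla lie mostly below the cortex, and the 4 genes of that list had a median of -0.12, the 46.1th percentile of detected genes. Akr1b1, aldose reductase, stood at 0.18 ± 0.22 and the water channel Aqp4 at -0.17 ± 0.33. The macula densa is a plaque of few cells beside the glomerulus, and Ptgs2, its cyclooxygenase, was the only detected member, at -5.01 ± 0.45, the 2.75th percentile.

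**Figure D2:**
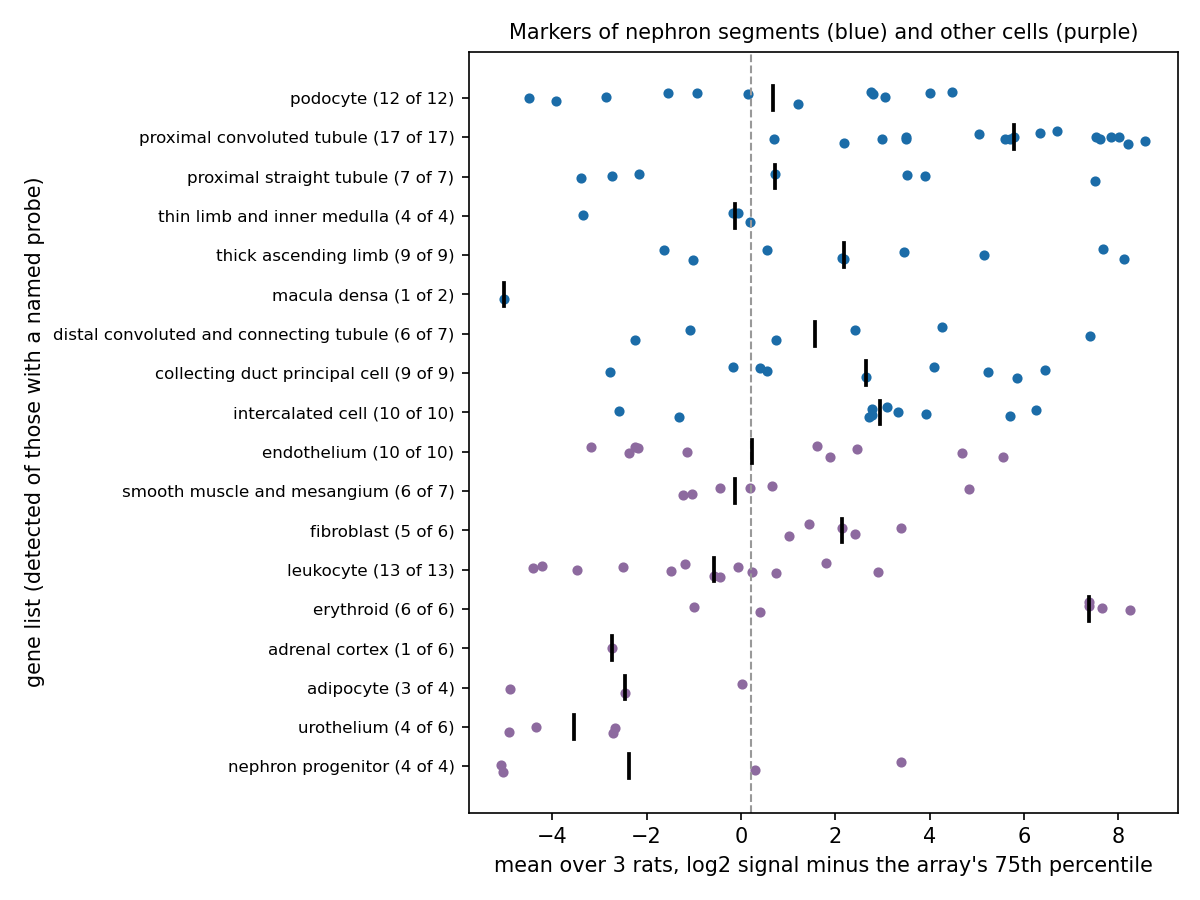
Mean level over the 3 rats of each detected list member (points), by nephron segment (blue) and other cell type (purple); black bars are list medians, the dashed line is the median of all detected genes at 0.21, and labels give detected members of those with a named probe. The proximal convoluted tubule median of 5.79 and the erythroid median of 7.38 lie farthest right.

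Lists of proximal tubule function also had medians above that of all detected genes. They are not separate from the segment lists: Gatm, Slc22a6 and Slc22a8 are also in the proximal convoluted tubule list. All 13 proximal metabolism genes were detected at 3.77 or more, with a median of 6.25; beside Fbp1 and Miox they include Pck1, the first committed enzyme of gluconeogenesis, at 7.83 ± 0.12. All 13 brush border enzymes were detected, with a median of 3.48. Cltrn, collectrin, which brings amino acid transporters to the apical membrane, stood at 7.55, 7.64 and 7.66, the peptidase Dpp4 at 5.91 ± 0.03 and Ggt1, gamma-glutamyl transferase, at 5.15 ± 0.03. All 11 drug and anion transporters were detected, led by Slc22a6 and by Slc22a8 (OAT3) at 7.84 ± 0.07. Of these transporters 8 lay at or above the 75th percentile, and the dimmest stood at -4.84. The transcription factor Hnf4a stood at 0.25 ± 0.24. The brightest members of that list were Tfcp2l1 (5.01 ± 0.16), a collecting duct factor, Esrra (4.83 ± 0.05), which drives mitochondrial genes, and Foxi1 (3.32 ± 0.30), the intercalated cell factor. Esrrb, a relative of Esrra, was not detected in any rat.

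The cortex also makes hormones and answers to them. Kl, the FGF23 coreceptor klotho, stood at 1.97, 1.96 and 1.86 on one probe and 1.94, 1.83 and 1.90 on the other. Agt, angiotensinogen, was lower and more variable at -0.42, 0.15 and -0.78. Epo, erythropoietin, which a few interstitial cells make when oxygen is low, was not well above background in any rat on either of its probes. All 11 hormone receptors of the list were detected, led by Pth1r, the parathyroid hormone receptor, at 4.68 ± 0.06, the calcium-sensing receptor Casr at 3.45 ± 0.02 and the angiotensin receptor Agtr1a at 2.67 ± 0.24.

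Genes of cells other than epithelium were also detected, and each count here is to be read against the 76.7% of all named genes. All 10 named endothelial genes were detected, led by Plvap, the diaphragm protein of fenestrae, at 5.54 ± 0.22, the VEGF receptor Kdr at 4.68 ± 0.06 and Pecam1 at 2.46, where the rats lay within 0.01 of each other. Of 6 fibroblast genes 5 were detected, led by the collagen gene Col1a2, between 3.31 and 3.44, and decorin (Dcn) at 2.43 ± 0.08, while lumican (Lum) was not detected. All 13 named leukocyte genes were detected, with a median of -0.57; the complement genes of resident macrophages led, C1qb at 2.90 ± 0.08 and C1qa at 1.79 ± 0.06. Globin signal was strong, with Hba-a1 at 8.50, 7.97 and 8.28 and Hba-a3 at 7.98, 7.25 and 7.70; the globin genes are near copies of each other, so their probes may share signal. Erythroid genes were lowest in replicate 2 in 5 of 6 cases, against 40.0% of all detected genes. Most of them are globin genes, so these cases may not be independent. Of 6 genes of the adrenal cortex, which lies close to the kidney, Cyp11b1, Cyp11b2, Star and Mc2r were not detected in any rat, Cyp11a1 was detected in some rats, and Cyp17a1 was detected in all at -2.58, -2.54 and -3.05. Of 4 named adipocyte genes 3 were detected, with Adipoq, adiponectin, at 0.03 ± 0.19, and leptin (Lep) was not. Of 6 urothelial genes 4 were detected, at -2.67 or lower, and Upk2 and Krt20 were not. In the smooth muscle and mesangial list 6 of 7 were detected, with a median of -0.13, and Cnn1 was not. The Y-linked genes Eif2s3y (0.38 ± 0.02) and Ddx3y (-2.32 ± 0.11) were detected in each rat, as the male label requires; Xist had no named probe.

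In total, 2792 genes, 18.3% of those named, were not well above background on any probe in any rat, and 762 more were detected in some rats only. Of 46 genes that mark other tissues, 27 were detected in all 3 rats, against 76.7% of all named genes. Another 17 were not detected in any rat and the others were detected in some. Most lists of this kind had low medians where detected, such as -4.73 for the 7 detected of 8 heart and skeletal muscle genes and -1.88 for the 3 detected of 6 pancreas genes. In the liver list 10 of 11 were detected, with a median of -0.48, and 4 lay at or above the 75th percentile. Those not detected included Gfap, Syt1, Snap25, Slc17a7 and Neurod1 of brain, Sftpc, Sftpa1 and Sftpb of lung, Gcg, Cpa1 and Cela1 of pancreas, Prl, Tshb and Fshb of pituitary, Ddx4 and Acrv1 of testis, and Myl2 of heart. Absence here is a bound set by background, not a zero. Genes of injury and stress spanned a wide range in these kidneys. Of 9 tubular injury genes 8 were detected in all rats, with a median of 1.41, led by Clu, the secreted chaperone clusterin, at 3.85, 3.76 and 4.31, and the keratin Krt18 at 3.14 ± 0.03. Of 9 NRF2 targets 7 were detected, near the 76.7% share of all named genes. Their median was 0.98, and Gclc, the catalytic subunit of glutathione synthesis, led at 4.83 ± 0.28. Havcr1, which encodes the injury marker KIM-1, was well above background in 2 of the 3 rats, at -4.42, -5.59 and -5.29. Cyp1a1, the aryl hydrocarbon receptor target, Il6, Ifit1 of the interferon response, and the class II gene RT1-Ba were not detected in any rat. Gclm and Slc7a11 of the NRF2 response, Egr2 of the immediate early response, Ciart of the clock and Aurkb of cell division were detected in some rats only.

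A few genes best known elsewhere were bright. Gdnf, the growth factor that induces ureteric branching in the embryo, stood between 3.35 and 3.43 in the 3 rats, but on only 1 of its 3 probes, and the other 2 did not pass detection in all rats. Pomc, the precursor of corticotropin in the pituitary, stood at 2.03, 2.29 and 1.82, and its second probe at 1.47, 1.81 and 1.33. Apoc3, a liver apolipoprotein, stood at 2.96, 2.78 and 2.96 with a second probe between 2.20 and 2.24.

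The 3 rats agreed closely for most genes. The median SD over the rats was 0.105, the 95th percentile of SDs was 0.445, and the median gap between the highest and the lowest rat was 1.15-fold. Spread depended on signal: the median SD was 0.240 in the dimmest 10% of detected genes and 0.066 in the brightest 10%. For scale, 7 spike-in probes printed 35 times each had a median SD of 0.043 to 0.046 among their spots on 1 array, and a median SD of 0.124 between the arrays, which is not smaller than the typical gene after scaling to the 75th percentile. A range over 1, that is a gap of more than 2-fold, was seen for 401 genes, 3.42% of those detected, and for 71 of the 6144 genes at or above the 75th percentile. By construction fewer genes pass this limit with 2 rats: 242 without replicate 1, 151 without replicate 2 and 241 without replicate 3. Of the 401 genes, replicate 2 was the rat farthest from the other two for 202, lower for 119 and higher for 83, while replicate 1 was farthest for 92 and replicate 3 for the rest. Whether the separate slide of replicate 2 plays a part was not tested. Across genes, replicates 1 and 3 on 1 slide differed with an SD of 0.288, and replicate 2 differed from them with an SD of 0.332 and 0.340.

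**Figure D3:**
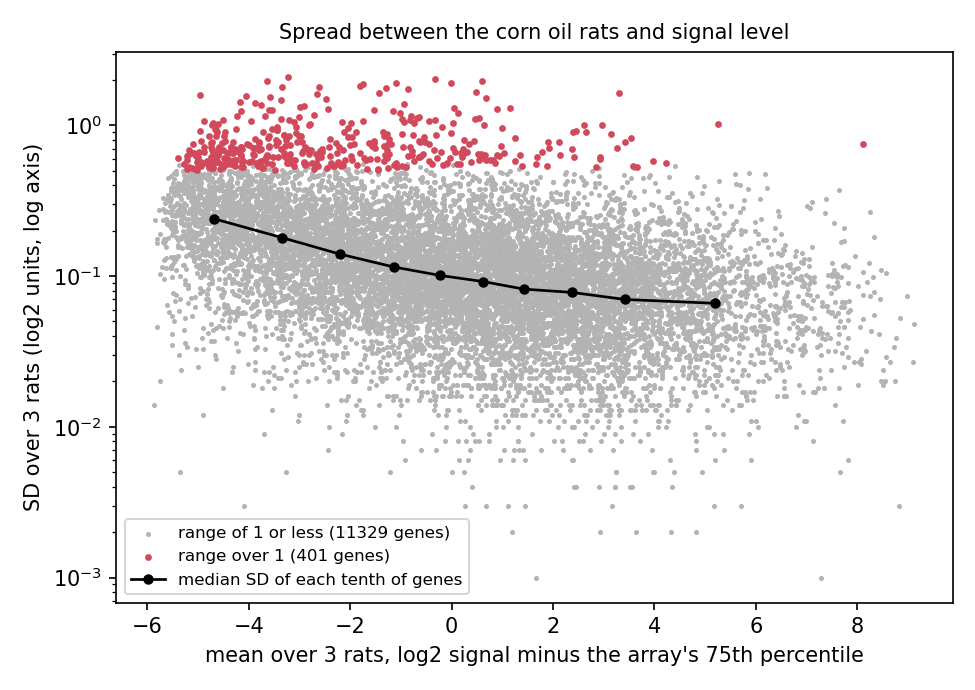
SD over the 3 rats against the mean level for every detected gene; the vertical axis is logarithmic, SDs below 0.001 are drawn at 0.001, red points have a range over 1 and the black line joins the median SD of each successive 10% of genes. The median SD falls from 0.240 on the left to 0.066 on the right, and few red points lie at high signal.

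The steadiest genes at or above the 75th percentile were Farp1, Rpl38, Ube2k, Rab1a and Ssb, each with an SD that rounds to 0.00; Rab1a, a vesicle transport GTPase, stood at 4.83 in each rat. Their second probes spread more, as that of Rpl38 did at 7.10, 7.32 and 7.15.

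Among genes at or above the 75th percentile, the largest spread was that of Ephx2, soluble epoxide hydrolase, which stood at 1.95, 1.52 and -1.68. Gp2, a glycoprotein related to uromodulin, stood at -0.30, 2.41 and -0.65, high in replicate 2 alone. Inmt, an amine methyltransferase, stood at 1.18, 1.89 and -1.05. Akr1b8, an aldo-keto reductase, was high in replicate 1 alone at 1.84, -0.14 and -0.05, and Incenp, of the chromosomal passenger complex, was low there at -1.27, 0.78 and 0.88. Atp7a, the copper pump, stood at 0.92, -1.10 and 0.26, and its second probe kept that order at -1.69, -3.41 and -2.49. The probes of P3h3, a collagen prolyl hydroxylase, disagreed: one ranged by 2.48 and the other gave 0.14, -0.07 and -0.36. Obp3, an odorant-binding lipocalin, stood at 0.81, 1.37 and -0.77. Kap, the kidney androgen-regulated protein of the proximal tubule, was the brightest gene with a range over 1, at 8.61, 7.25 and 8.49; its second probe also read lowest in replicate 2, at 5.37, 3.42 and 5.22.

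Dimmer genes varied more. Hmox1, the inducible heme oxygenase, stood at -1.57, -1.42 and 2.00, so that replicate 3 was 11.9-fold above the lowest rat. Lcn2, which encodes the injury marker NGAL, ran the other way, at -1.44, -1.75 and -4.68. Both rest on 1 probe. Klk1c10, a kallikrein-related gene, stood at -2.27, -2.13 and 1.12. The membrane protein gene Tmem125 stood at 0.61, -2.16 and 1.49. Ly6g6e and Ly6g6c, neighbours in the major histocompatibility region, were each low in a different rat, at -0.92, -3.89 and -0.41 and at -1.23, -0.35 and -3.85. The class I gene RT1-CE10 stood at -0.78, 0.15 and -3.26. Or5b95, an olfactory receptor, and Mis18a, a centromere protein, were high in replicate 2 alone, at -0.80 and -1.27 against -4.38 or lower and -4.13 or lower in the others. Samd5 was high in replicate 3 at -1.38, but its second probe was level at -4.54, -4.40 and -4.31. Matn1, a cartilage matrix protein, stood at -2.83, -0.16 and 0.42, and its second probe kept that order.

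**Figure D4:**
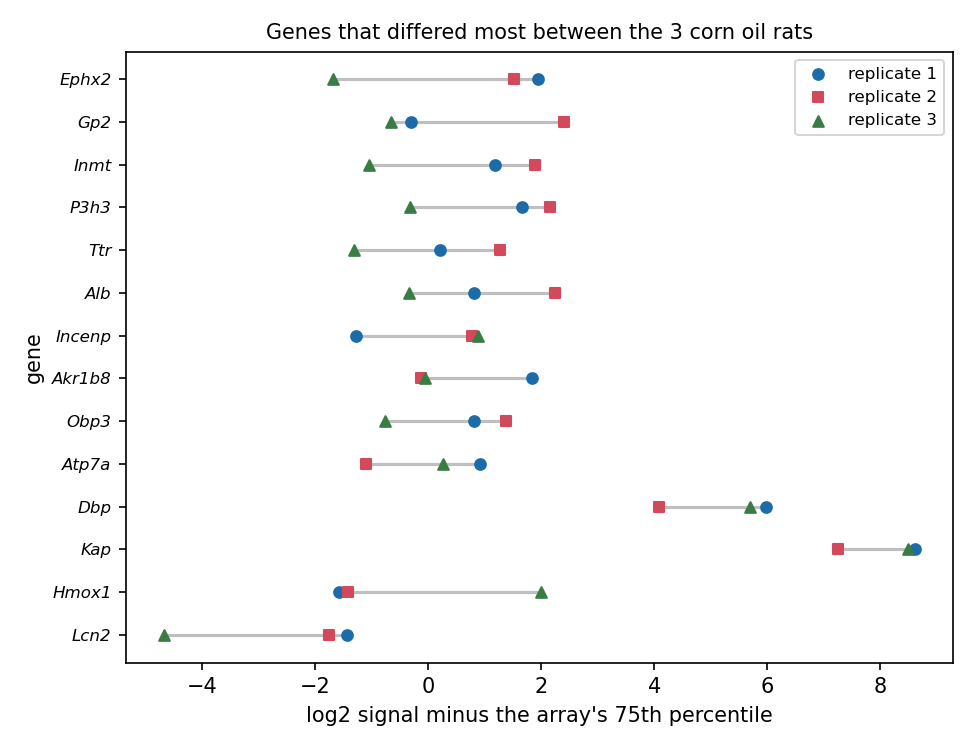
Level in each rat for genes with the largest SD at or above the 75th percentile and for Kap, Hmox1 and Lcn2; the horizontal axis is the log2 signal minus the array's 75th percentile and grey lines span the rats. In Ephx2, Hmox1 and Lcn2 replicate 3 stands apart, and in Gp2, Dbp and Kap replicate 2.

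A second probe is a measure that the choice of these genes did not use. It reads the same RNA on the same array, so it cannot tell the animal from its RNA or its slide. Of the 401 genes, 127 had a second detected probe, and 84 of these (66.1%) placed the same rat highest and the same rat lowest; over all 6051 genes with a second detected probe the share was 38.3%. The second probes of the 127 genes had a median range of 1.17, against 0.21 over all 6051. On the first probe these median ranges were 1.35 and 0.178, so the 2 shares come from genes of unlike spread. In the 3 treated rats, 199 of the 401 genes (49.6%) also had a range over 1, against 7.58% of all detected genes. Those rats differ from these in treatment. Low signal, which is common among the 401 genes though not shared by all, also widens the range.

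Gene lists were also compared between the rats. For each list the median deviation of its detected members from their own 3-rat mean was taken; over all detected genes it was 0.01, -0.01 and 0.00 in replicates 1, 2 and 3. Of all detected genes, 35.6%, 34.5% and 29.9% were highest, and 31.4%, 40.0% and 28.6% were lowest, in replicates 1, 2 and 3, and the counts below are to be read against these shares. Housekeeping genes (-0.02, 0.01 and 0.02) and podocyte genes (-0.02, 0.04 and 0.00) stayed near those values.

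**Figure D5:**
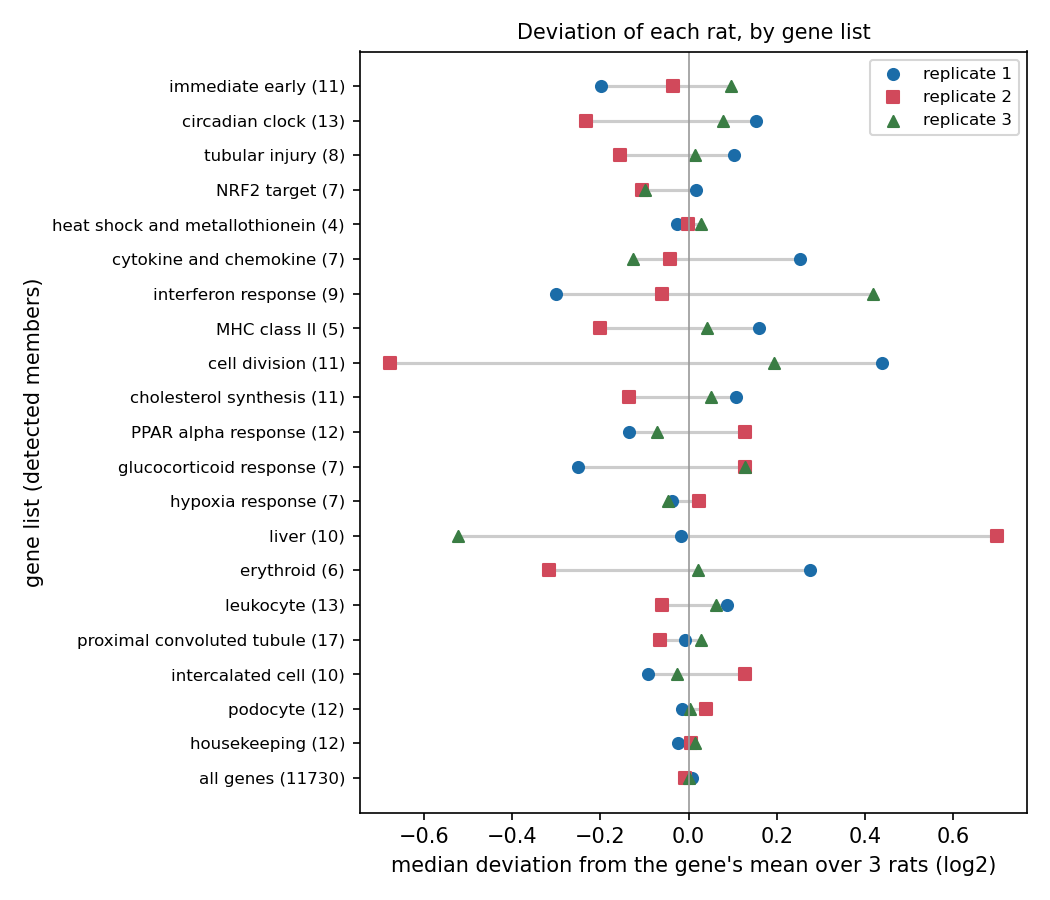
Median deviation of the detected members of each list from their own mean over the 3 rats (log2), by rat; the number of detected members stands in brackets. Replicate 2 lies lowest for cell division (-0.68) and highest for liver genes (0.70), and replicate 3 lies highest for the interferon response (0.42).

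Cell division genes were lower in replicate 2. Of 11 detected members, 9 were lowest in that rat, against 40.0% of all detected genes, and the median deviations were 0.44, -0.68 and 0.19. A range over 1 was seen for 7, against 3.42% of all detected genes. The list was dim, with a median level of -1.995, and 4.35% of genes in the 10% with a median of -2.20 had such a range. Ccnb2, a mitotic cyclin, stood at -2.48, -3.92 and -2.73. Ccna2, the cyclin of S phase and mitosis, stood at -1.38, -2.78 and -1.58, and its second probe at -1.85, -3.25 and -2.10. Prc1, which bundles microtubules at the spindle midzone, stood at -1.46, -2.84 and -1.69, with a second probe at -4.12, -5.37 and -4.51. The kinase Cdk1 stood at 0.73, -0.50 and 0.49, and the mitotic kinase Plk1 at -0.90, -1.70 and -1.02. In each of these replicate 2 lay below both other rats by more than they differed from each other. The exceptions were the spindle motor Kif11, the brightest member, at 2.17, 2.25 and 2.40, and Tpx2, named after its values were seen, at -3.41, -3.58 and -3.64. Erythroid genes (-0.32) and leukocyte genes (-0.06, with 9 of 13 lowest) also had their lowest median deviation in replicate 2; their part in the cell division values was not tested.

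The promoters of 3 of these genes are shown because promoters of mitotic genes are known for CCAAT boxes, bound by NF-Y, followed by the cell cycle homology region (CHR), bound by the DREAM and MuvB complexes. Each is the 250 bases before the start, 5′ to 3′ on the coding strand, from RefSeq on GRCr8: Ccnb2 at chr8:79981659-79981908 (minus strand), Cdk1 at chr20:19265043-19265292 (plus strand) and Prc1 at chr1:143659231-143659480 (plus strand). Capitals mark CCAAT and TTTGAA on either strand, so that ATTGG and TTCAAA are their reverse forms.
Ccnb2: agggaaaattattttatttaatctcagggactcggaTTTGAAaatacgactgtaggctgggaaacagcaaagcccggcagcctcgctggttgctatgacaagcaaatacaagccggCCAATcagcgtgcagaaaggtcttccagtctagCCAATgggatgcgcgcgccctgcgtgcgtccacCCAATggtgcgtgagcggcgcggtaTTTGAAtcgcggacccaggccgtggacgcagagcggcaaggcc
Cdk1: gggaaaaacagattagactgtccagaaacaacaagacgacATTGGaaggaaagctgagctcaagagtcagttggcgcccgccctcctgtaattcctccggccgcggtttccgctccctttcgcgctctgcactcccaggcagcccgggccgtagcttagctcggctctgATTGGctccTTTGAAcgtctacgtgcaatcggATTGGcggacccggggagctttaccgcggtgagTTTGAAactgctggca
Prc1: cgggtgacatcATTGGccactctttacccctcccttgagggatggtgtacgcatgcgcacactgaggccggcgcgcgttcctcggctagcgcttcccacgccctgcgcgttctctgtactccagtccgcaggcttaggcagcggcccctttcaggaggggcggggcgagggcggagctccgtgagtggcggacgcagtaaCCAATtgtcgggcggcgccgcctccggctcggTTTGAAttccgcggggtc
Counted from the start, the CCAAT boxes of Ccnb2 begin at -134, -101 and -68, and its TTTGAA matches at -214 and -43. In Cdk1 reversed CCAAT boxes begin at -210, -81 and -49, and TTTGAA at -72 and -16. In Prc1 CCAAT begins at -50, with a reversed box at -239, and TTTGAA at -18. Of 9 detected members with a promoter entry, 8 held CCAAT, against 34.3% of all 27457 promoters of the same length, and 4 held TTTGAA, against 16.03%. Both were present in 4 of the 9, Ccnb2, Cdk1, Birc5 and Prc1, and in 5.76% of all promoters. Ccnb1, Plk1, Nusap1 and Kif11 held CCAAT and no TTTGAA in this window.

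Circadian clock genes split by direction in replicate 2, the rat on the separate slide. In the clock, BMAL1 with CLOCK or NPAS2 drives the Per, Cry, Nr1d, Dbp and Tef genes, whose products feed back, so that Bmal1 and Dbp peak at opposite times of day. Dbp stood at 5.99, 4.08 and 5.70, and its second of 4 probes at 5.25, 3.31 and 4.94. Tef stood at 3.34, 2.22 and 3.22, and Per2 at 0.52, -0.57 and 0.72. For each of them replicate 2 was lowest by more than the gap between the other rats. Bmal1 was opposite, at -0.88, 0.92 and -0.61, with a second probe at -2.76, -1.06 and -2.70. Of 13 detected clock genes, 9 were lowest in replicate 2 and the remaining 4 were highest there, namely Bmal1, Clock, Npas2 and Nfil3. A range over 1 was seen for 6 of the 13, against 3.42% of all detected genes. Npas2 (-0.68, 0.41, -0.60) and Nfil3 (-3.10, -2.04, -2.76) are named here after their values were seen. The rats were kept on a light-dark cycle, and the hour at which tissue was taken is not given in the sources used here. Whether the hour, the animal or the separate slide plays a part was not tested.

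The promoters of Per2 and Tef are shown as those of the detected members whose 250-base windows held the motifs through which the loop acts. Per2, at chr9:99496994-99497243 (minus strand), holds the D-box TTATGNAA, which DBP, TEF and NFIL3 bind, and Tef, at chr7:115206577-115206826 (plus strand), holds the E-box CACGTG, which BMAL1 binds; both are from RefSeq on GRCr8 with the match in capitals, 5′ to 3′ on the coding strand.
Per2: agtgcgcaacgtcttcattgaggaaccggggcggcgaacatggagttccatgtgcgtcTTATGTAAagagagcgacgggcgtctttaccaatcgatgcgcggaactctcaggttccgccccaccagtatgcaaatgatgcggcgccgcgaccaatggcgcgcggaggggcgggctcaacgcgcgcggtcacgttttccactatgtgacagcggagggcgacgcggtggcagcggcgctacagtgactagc
Tef: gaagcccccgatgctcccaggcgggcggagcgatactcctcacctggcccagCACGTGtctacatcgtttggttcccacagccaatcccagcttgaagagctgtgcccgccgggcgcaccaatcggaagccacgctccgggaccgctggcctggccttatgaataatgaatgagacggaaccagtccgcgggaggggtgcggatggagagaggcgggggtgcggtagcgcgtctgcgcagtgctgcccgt
On both strands, the D-box was found in 1 of 12 detected clock genes with a promoter entry and in 3.21% of all promoters, and the E-box in 1 of 12 and in 5.79%.

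Genes best known from liver differed between rats. Of 10 detected members, 8 were highest in replicate 2 and 7 were lowest in replicate 3, with median deviations of -0.02, 0.70 and -0.52. A range over 1 was seen for 6, against 3.42% of all detected genes. Alb, albumin, stood at 0.81, 2.24 and -0.34, and its second probe at -2.27, -0.67 and -1.72. Ttr, the thyroxine carrier transthyretin, stood at 0.21, 1.26 and -1.31, and its second probe at -3.95, -2.23 and -5.58. The brightest member, Apoc3, did not take part, with a range of 0.19, nor did the fibrinogen chain Fga at 0.61, 0.52 and 0.30. The liver P450 genes Cyp2c11 and Cyp3a2, known from male rats and named after their values were seen, were low: Cyp2c11 stood at -3.98, -2.21 and -2.23, and Cyp3a2, well above background in some rats only, at -3.50, -2.06 and -6.43.

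Interferon response genes were highest in replicate 3 for 7 of 9 detected members and lowest in replicate 1 for 7, with median deviations of -0.30, -0.06 and 0.42. Oas1a, the antiviral oligoadenylate synthetase, stood at -0.22, 0.49 and 0.90, with a second probe at -2.69, -2.35 and -1.71. Irf7, the interferon regulatory factor, stood at 0.23, 1.03 and 1.31, and Usp18, which removes ISG15, at -2.84, -2.47 and -1.93. Mx2, the brightest member, was level at 6.16 ± 0.10.

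Targets of PPAR alpha, the fatty acid sensor, leaned towards replicate 2, where 8 of 12 were highest, against 34.5% of all detected genes, and none was lowest, against 40.0%. The lean was small, with a median deviation of 0.13 there, and 1 of the 12 had a range over 1, against 3.42% of all detected genes. Ehhadh of peroxisomal oxidation stood at 2.95, 3.61 and 3.19, and Pdk4, which restrains pyruvate oxidation, at -3.17, -2.55 and -3.33. Ppara itself, named after its values were seen, was lowest in that rat, at 0.66, -0.49 and 0.45, and so was its second probe. Cholesterol synthesis genes were lowest in replicate 2 for 8 of 11 members, against 40.0% of all detected genes, by small amounts: the squalene epoxidase Sqle stood at 1.42, 0.88 and 1.35. Glucocorticoid targets had median deviations of -0.25, 0.13 and 0.13 in replicates 1, 2 and 3. Of 7 members 4 were lowest in replicate 1, against 31.4% of all detected genes. Among them Sgk1, the kinase that regulates sodium channels, was low in replicate 1 alone, at 2.24, 3.26 and 3.29. Of the hypoxia genes, Vegfa, the endothelial growth factor, stood at 4.47 ± 0.04.

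Genes of the major histocompatibility complex, which rats name RT1, were counted as a family after their values were seen. Of 42 named RT1 genes, 34 were detected, with a median SD of 0.282 against 0.105 for all detected genes, and 9 (26.5%) had a range over 1, against 3.42%. RT1-CE15 stood at -0.67, -3.31 and -0.30, and RT1-CE16 at 2.93, 2.39 and 4.10. Among class II genes, RT1-Db1 stood at 2.81, 1.67 and 3.46, while Cd74, the invariant chain that escorts class II proteins and is not itself an RT1 gene, stood at 4.96 ± 0.18. RT1 genes are highly alike and polymorphic, so probes may cross-react or miss an allele, and how far that shapes these values was not tested.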

How the data were processed

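Total RNA of renal cortex was labelled with Cy3 and hybridised to rat arrays, per the labels' protocols; per the file headers, intensities were extracted with Agilent Feature Extraction 10.7.1.1. The deposited scanner files give a background-corrected intensity per spot with detection and outlier flags. The authors' deposited value table holds linear values that equal the scaled scanner signals as a ratio to the 75th percentile, and served as an alternative.

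Processed intensities were put on the log2 scale and the 75th percentile of non-control probes was subtracted. Probes flagged as outliers on a corn oil array (31) were left out. Through RefSeq identifiers and the GRCr8 gene table, 27460 probes were named for 15284 genes. No test was run, because 1 group is described; SDs are over 3 rats, whose number limits the precision.

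Named were the 20 brightest genes, the 3 brightest and the undetected members of each list, the 3 widest of each state list, the 12 largest SDs at or above the 75th percentile and among all genes, the 5 smallest, and 23 fixed genes. Members and lists were chosen with earlier results of these data known. Some genes are not reported here. Scripts were tested on simulated data. Python 3.11.15, pandas 2.3.3 and limma 3.58.1 (normexp, quantile) were used.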

Additional observations from a re-analysis of the deposited data

Results flagged for a closer look

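Probes without a gene name, which no count above uses, also carried signal: 20487 of 34197 were well above background on all 3 corn oil arrays, against at most 2 of 308 negative control spots. Of them, 5 were brighter than Fbp1, with a highest mean of 9.56, and 3.79% had a range over 1, against 3.42% of detected genes.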

How the results depend on the processing

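In all, 12 alternatives were run; naming by gene names of the scanner files was not run. No paired analysis was possible because only 1 group is described. The count of detected genes ran from 11730 to 12959, and the 75 segment markers were detected under each alternative. With the looser flag of a positive and significant signal, genes not detected numbered 996 instead of 2792, and genes with a range over 1 numbered 940 instead of 401, since dimmer probes then enter. With normexp background correction (offset 50) and quantile normalization, the genes with a range over 1 numbered 166; the cause was not tested. With the mean over probes in place of the brightest, 9 of the 20 brightest genes kept their place, since dim second probes then count. Leaving out 1 rat gave 151 to 242 genes with a range over 1 and a median SD of 0.0714 to 0.0990. The cell division difference of replicate 2 from the other rats (-1.02) and the liver difference between replicates 2 and 3 (1.16) kept their sign under each alternative that could give them, between -1.09 and -0.71 and between 0.68 and 1.39. Scaling to the median moved the levels by a median of 3.24, and to the 75th percentile of detected probes by -1.31; 404 and 399 genes then had a range over 1. Dim signal was common among variable genes: of the 401, 106 lay in the dimmest 10% and 97 in the next 10%.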

Other observations

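Receptor families of the nose and tongue, counted by symbol after their values were seen, made up a large part of what was not detected. Counts of undetected family members in this section are to be read against 18.3% of all named genes. Of 1169 olfactory receptor genes named, 844 (72.2%) were not detected in any rat and 206 were detected, with a median level of -4.17. Of these, 5 lay at or above the 75th percentile, led by Or13l2 at 2.69, 2.91 and 2.95, Or2ak6 at 2.45, 2.24 and 2.54 and Or4f7c at 1.41, 1.34 and 1.42. Of 116 vomeronasal receptor genes 85 were not detected, but Vom2r34 stood at 2.54, 2.65 and 2.70. Of 33 taste receptor genes 24 were not detected, and Tas1r1 stood at -0.14 ± 0.13.

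Other families split more sharply. Defb1, the beta defensin that tubules secrete, stood at 5.28, 5.84 and 5.41, while the other 16 detected beta defensins lay at -1.03 (Defb11) or lower and 20 of 37 were not detected. Of 22 placental prolactin family genes, 19 were not detected. The kallikrein-related genes Klk1c2 (5.71 ± 0.06) and Klk1c8 (4.74 ± 0.06) were bright and level, unlike Klk1c10; near copies in this family may share signal. Of 69 cytochrome P450 genes, 42 were detected, against 76.7% of all named genes. Cyp4a8 stood at 8.23 ± 0.12 and Cyp4a3 at 7.73 ± 0.17, after Cyp4a2 and Cyp2c23.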
